A study of Mus musculus with 26 samples.

Results

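The 10 genes described here encode proteins of cell division: the cyclins Ccna2, Ccnb1 and Ccnb2, their kinase Cdk1, the kinases and partners of chromosome attachment Aurkb, Birc5 and Bub1, the kinetochore protein Cenpf, the DNA topoisomerase Top2a and the proliferation marker Mki67. They were selected by gene name, not by a rule on their values, from the 56941 genes listed in a matrix of read counts. Earlier results of these data were known when they were chosen. All 10 were among the 15357 genes abundant enough to be tested. The matrix holds left ventricle RNA of 26 mice, sequenced to ask how the sexes differ in the response of the heart to loss of B55α, a regulatory subunit of protein phosphatase 2A encoded by Ppp2r2a. The knockout mice (cKO, genotype aMHC-CreTg/0-Ppp2r2aL/L) carried a Cre transgene under the αMHC promoter, which is active in cardiomyocytes, and 2 floxed Ppp2r2a alleles. The controls (Ctrl, genotype aMHC-Cre0/0-Ppp2r2aL/L) had the floxed alleles but no Cre. Both sexes were sampled, with 6 Ctrl and 7 cKO mice in each, and every mouse had 2 weeks of saline infusion from an implanted minipump before collection at 12 to 16 weeks of age. The strain is labelled C57BL/6N, while the series' design text gives a mixed background, made of C57BL6/N for the floxed mice and FVB for the aMHC-Cre mice. A Cre-positive group lacking floxed alleles was not analysed here, so loss of Ppp2r2a and presence of the Cre transgene cannot be told apart.

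As background, mitosis begins when cyclin B and CDK1 phosphorylate a large set of proteins. Exit from mitosis needs their dephosphorylation, much of it by PP2A with a B55 subunit, which the kinase Greatwall (Mastl) holds off through the small inhibitors Ensa and Arpp19 until cyclin B is destroyed. B55 acts on phosphorylated proteins, and the measurements here are of RNA only. Most cardiomyocytes of the adult mouse do not divide, and fibroblasts, endothelial cells and leukocytes of the ventricle can. In RNA from whole ventricle, fewer cells of a type and less RNA per cell cannot be told apart.

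Many genes of the G2 and M phases carry CCAAT boxes, which the factor NF-Y binds, and a cell cycle homology region (CHR), which the DREAM and MYBL2-FOXM1 complexes bind. The promoters are shown because the levels of most of these genes varied together among mice. RefSeq (GRCm38.p6) held a promoter window of 300 bases, from 250 before to 50 after the start, for 8 of the 10 genes: Mki67, Top2a, Ccnb1, Ccnb2, Cdk1, Birc5, Bub1 and Cenpf. Of these 8, 7 held at least 2 CCAAT boxes (CCAAT, or ATTGG on the other strand), against 11.7% of all 32851 windows in the table, and Birc5 held none. A CHR (TTTGAA, or TTCAAA on the other strand) was found in 5 of the 8, against 17.9% of all windows, and 4 of the 8 held at least 2, against 2.31%. Ccnb1, Bub1 and Birc5 held no CHR in these letters. No match of one motif overlapped a match of the other in these windows, and a match describes the sequence only. In these letters, Birc5 held neither motif in its window and Cenpf held both. A link between motifs and shared variation was not tested. The last 150 bases before the start are printed 5′ to 3′ for 5 genes, all on the minus strand of GRCm38.p6, with both motifs in capitals. They are Ccnb1 (chr13:100786487-100786636), the 1 gene that passed the test between groups, its relative Ccnb2 (chr9:70421555-70421704), their kinase partner Cdk1 (chr10:69352913-69353062), Top2a (chr11:99024190-99024339), and Cenpf (chr1:189688087-189688236), whose level was not correlated with the others at the threshold used.
Ccnb1: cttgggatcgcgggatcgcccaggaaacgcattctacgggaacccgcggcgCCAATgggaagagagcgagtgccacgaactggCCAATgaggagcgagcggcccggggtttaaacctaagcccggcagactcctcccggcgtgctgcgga
Ccnb2: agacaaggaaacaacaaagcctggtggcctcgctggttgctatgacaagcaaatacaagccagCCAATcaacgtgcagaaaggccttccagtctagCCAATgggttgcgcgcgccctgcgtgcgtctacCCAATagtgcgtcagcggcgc
Cdk1: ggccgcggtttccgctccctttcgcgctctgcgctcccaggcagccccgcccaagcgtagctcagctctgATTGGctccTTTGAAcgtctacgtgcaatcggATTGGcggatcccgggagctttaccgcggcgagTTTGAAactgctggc
Top2a: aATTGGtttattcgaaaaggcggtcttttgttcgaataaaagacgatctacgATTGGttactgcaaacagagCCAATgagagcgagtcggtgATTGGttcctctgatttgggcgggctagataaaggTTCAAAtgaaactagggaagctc
Cenpf: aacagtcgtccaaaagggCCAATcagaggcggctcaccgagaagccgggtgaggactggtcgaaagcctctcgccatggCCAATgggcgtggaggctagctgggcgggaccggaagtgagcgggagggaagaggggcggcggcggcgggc
The stretch of Top2a shows 4 CCAAT boxes on either strand and 1 CHR close to the start. Ccnb1 and Cenpf show 2 CCAAT boxes each and Ccnb2 shows 3, and none of these 3 genes shows a CHR here. The 2 CHRs of Ccnb2, at -167 and 5 from the start, and the 1 CHR of Cenpf, after the start, lie outside the printed bases.

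The libraries held 14.4 to 30.9 M counts (M for 1000000), with medians of 24.4 M for Ctrl males, 22.8 M for cKO males, 20.7 M for Ctrl females and 19.1 M for cKO females. Ppp2r2a, the deleted gene, was lower in cKO than in Ctrl hearts of both sexes. It lay between 24.1 and 47.7 counts per 1000000 (CPM, scaled by TMM) in Ctrl males, between 11.8 and 16.2 in cKO males, between 36.2 and 46.7 in Ctrl females and between 9.96 and 16.2 in cKO females. The log2 fold change was -1.40 in males (adjusted p = 1.86e-06, edgeR's quasi-likelihood test with Benjamini-Hochberg adjustment) and -1.58 in females (adjusted p = 1.90e-07), and neither pair of groups overlapped. Ctrl males 3 and 6 stood apart at 24.9 and 24.1 CPM against at least 41.9 in the other 4, and results for males are given with and without them. Transcripts of cardiomyocyte marker genes summed to between 54280 and 76090 CPM over 8 genes.

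The 10 genes were low in these hearts. Per kilobase of exon (exon lengths from GENCODE M21, matched by gene ID), the median level over the 26 mice was 0.684 CPM for Cenpf, 0.652 for Ccnb2, 0.637 for Mki67 and 0.525 for Ccna2. It was 0.431 for Top2a, 0.368 for Cdk1, 0.310 for Birc5, 0.256 for Aurkb, 0.145 for Ccnb1 and 0.0976 for Bub1. The ranges over mice of neighbours in this order overlapped in every case, and Ppp2r2a, for comparison, stood at 3.02 CPM per kilobase. In raw counts, Cenpf had 154 to 396 per library and Mki67 54 to 339, while Ccnb1 had 2 to 38, Aurkb 3 to 29 and Bub1 2 to 27. The detection floor was set at 3 counts, which is 0.0928 to 0.210 CPM depending on the library. Bub1 was at or under this floor in 4 of 26 libraries, 3 of them cKO females and 1 a Ctrl female. Ccnb1 and Aurkb were at or under it in 1 library each, both cKO females, and the other 7 genes never were. No gene was at 0 in any library. Ccna2 overlaps Exosc9 on the opposite strand in GENCODE M21 by up to 439 bases of an exon, and the counts' use of strand is not given in the sources used here, so its level is uncertain. Top2a overlaps Gm23451, a separate gene model, on the same strand by 122 bases, so its level is uncertain to that extent too.

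**Figure D1:**
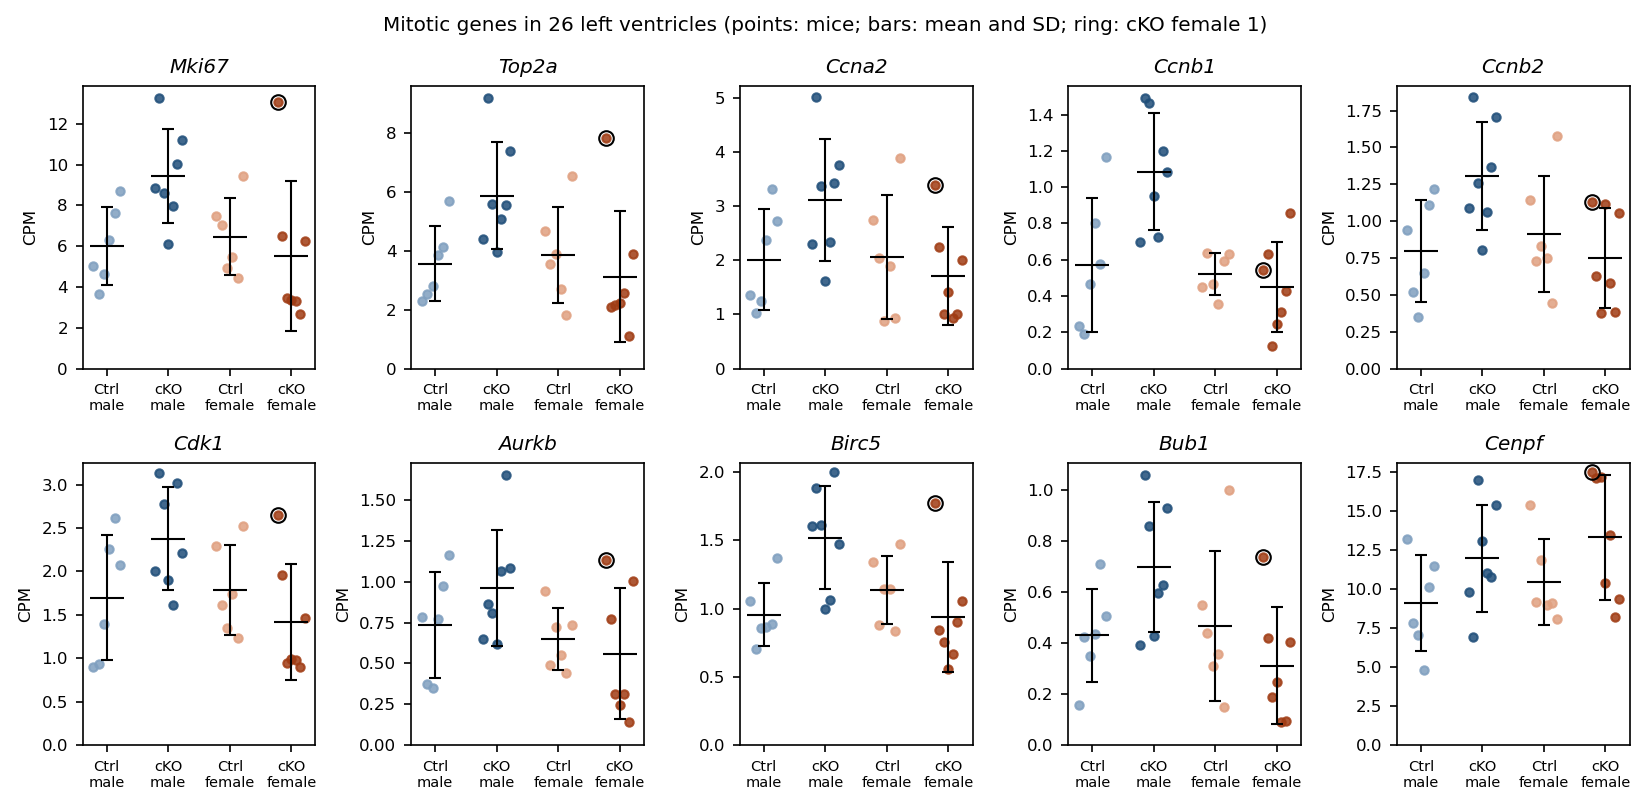
Level of each of the 10 genes in every mouse, in CPM (y axis, from 0, 1 scale per gene), by group (x axis, Ctrl and cKO of each sex). Points are mice, horizontal bars are group means with error bars of 1 SD, and a ring marks cKO female 1, which is the highest cKO female in 9 of the 10 genes.

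In males, the knockout hearts had higher levels of all 10 genes on average, by 0.38 to 0.92 on the log2 scale, but no difference passed the test across all genes. The 10 of 10 positive fold changes stand against 50.3% of all genes tested, and the median was 0.67 against 0.00 for all genes. Most of the 10 varied together among these mice (given below), so counts over them are not counts of independent genes. None of the 10 was called (adjusted p under 0.05), where 0.443% of all genes were, and limma voom also called none. DESeq2 called none either, but its smallest adjusted p of the 10 is missing, and a missing value counted as not called. At an unadjusted p under 0.05, 5 of the 10 were higher, against 6.11% of all genes tested, and none was lower. With 1 mouse left out, the count of 5 fell to 2 without Ctrl male 3 and to 3 without Ctrl male 2, cKO male 2 or cKO male 7, and was 8 without Ctrl male 5. The levels of the groups overlapped for all 10, where 1.28% of all genes tested had groups that did not.

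Among the cyclins and their kinase, Ccnb1, which activates CDK1 at the start of mitosis, had the largest of these fold changes. It had a lowest, median and highest level of 0.188, 0.521 and 1.17 CPM in Ctrl males and of 0.695, 1.08 and 1.49 in cKO males (means 0.572 ± 0.368, SD, n = 6, and 1.09 ± 0.321, n = 7). All 7 cKO males lay above the Ctrl mean, and the groups overlapped. The log2 fold change was 0.92 (SE 0.33, unadjusted p = 0.00847, adjusted p = 0.184, edgeR's quasi-likelihood test). Ccnb2, the other mitotic B-type cyclin, ran from 0.350 through a median of 0.794 to 1.22 CPM in Ctrl males and from 0.806 through 1.26 to 1.84 in cKO males. Again all 7 cKO males exceeded the Ctrl mean, with a log2 fold change of 0.73 (adjusted p = 0.264 by edgeR). Ccna2, the cyclin of S phase and G2, and Cdk1 had 6 of 7 cKO males above the Ctrl mean each. Their log2 fold changes were 0.64 (95% interval -0.08 to 1.35) and 0.48 (-0.07 to 1.03), and both intervals include 0.

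Birc5 (survivin), which with Aurkb forms the chromosomal passenger complex, had the smallest p of the 10 in males. Its levels ran from 0.704 through a median of 0.876 to 1.37 CPM in Ctrl males and from 0.996 through 1.61 to 2.00 in cKO males. All 7 cKO males were above the Ctrl mean of 0.956 ± 0.230 (SD, n = 6), and the log2 fold change was 0.67 (SE 0.22, unadjusted p = 0.00550, adjusted p = 0.154 by edgeR). Aurkb itself, the kinase of that complex, had a log2 fold change of 0.38 with an interval from -0.33 to 1.09, and 5 of 7 cKO males above the Ctrl mean. Bub1, the spindle checkpoint kinase, had 0.72 (-0.07 to 1.51) at levels of 0.156 to 0.709 CPM in Ctrl males and 0.391 to 1.06 in cKO males. Cenpf, which is loaded on kinetochores late in G2, was the most abundant by read count and had 0.40 (-0.08 to 0.89).

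Mki67, present in the nuclei of cycling cells, ran from 3.66 through a median of 5.68 to 8.71 CPM in Ctrl males and from 6.12 through 8.86 to 13.3 in cKO males. The log2 fold change was 0.66 (SE 0.29, unadjusted p = 0.0331, adjusted p = 0.322 by edgeR), and 7 of 7 cKO males lay above the Ctrl mean. Top2a, which untangles sister chromatids, ran from 2.31 through 3.33 to 5.67 CPM and from 3.94 through 5.54 to 9.17 in the same order, with a log2 fold change of 0.74 (adjusted p = 0.333). For both genes the lowest cKO males were within the range of the Ctrl males. Without Ctrl males 3 and 6, the fold changes of the 10 genes were 0.38 to 1.20, 5 had an unadjusted p under 0.05, and none was called (smallest adjusted p = 0.126 for Ccnb1, edgeR).

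In females, 9 of the 10 genes were on average lower in the knockout, against 48.9% of all genes tested, and Cenpf was higher. All 10 intervals included 0, and the groups overlapped for all 10, where 0.169% of all genes had groups that did not. The fold changes of the 9 ran from -0.57 (Bub1) to -0.19 (Ccnb1) on the log2 scale and that of Cenpf was 0.35, with a median of -0.26 over the 10 against 0.00 for all genes. No gene of the 10 was called by edgeR, DESeq2 or limma voom, where edgeR called 0.0326% of all genes. None had an unadjusted p under 0.05, against 5.15% of all genes tested, and the smallest was 0.154 for Cenpf (adjusted p = 0.975, edgeR's quasi-likelihood test).

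Mki67 ran from 4.43 through a median of 6.25 to 9.46 CPM in Ctrl females and from 2.67 through 3.47 to 13.1 in cKO females. The highest cKO female exceeded every Ctrl female, while 5 of 7 cKO females lay below the Ctrl mean of 6.46 ± 1.88 (SD, n = 6). The log2 fold change was -0.22 with a 95% interval from -0.85 to 0.41. Ccnb1 ran from 0.355 through 0.528 to 0.634 CPM in Ctrl females and from 0.126 through 0.428 to 0.856 in cKO females. Its spread was wider among cKO females (SD 0.249, n = 7) than among Ctrl females (SD 0.114, n = 6), and its log2 fold change was -0.19 (-0.98 to 0.59).

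Top2a ran from 1.82 through 3.72 to 6.52 CPM in Ctrl females and from 1.10 through 2.23 to 7.82 in cKO females, with 2 of 7 cKO females above the Ctrl mean. Birc5 ran from 0.836 through 1.14 to 1.47 CPM and from 0.557 through 0.840 to 1.77 in the same order. Only 1 of 7 cKO females had more Birc5 than the Ctrl mean, and the log2 fold change was -0.26 (-0.75 to 0.23). Cenpf ran from 8.09 through 9.13 to 15.4 CPM in Ctrl females and from 8.19 through 13.5 to 17.4 in cKO females, with 4 of 7 above the Ctrl mean. The highest value of Mki67, Top2a and Birc5 among cKO females came from 1 mouse, cKO female 1. Without it, the median log2 fold change of the 10 genes was -0.52, 5 had an unadjusted p under 0.05, and none was called (smallest adjusted p = 0.870, edgeR). Without Ctrl female 6, in contrast, the median was -0.10 with 8 of 10 negative, at -0.08 for Mki67, -0.07 for Top2a, -0.05 for Ccnb2 and 0.01 for Ccna2, and none had an unadjusted p under 0.05 or was called (smallest adjusted p = 0.930).

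**Figure D2:**
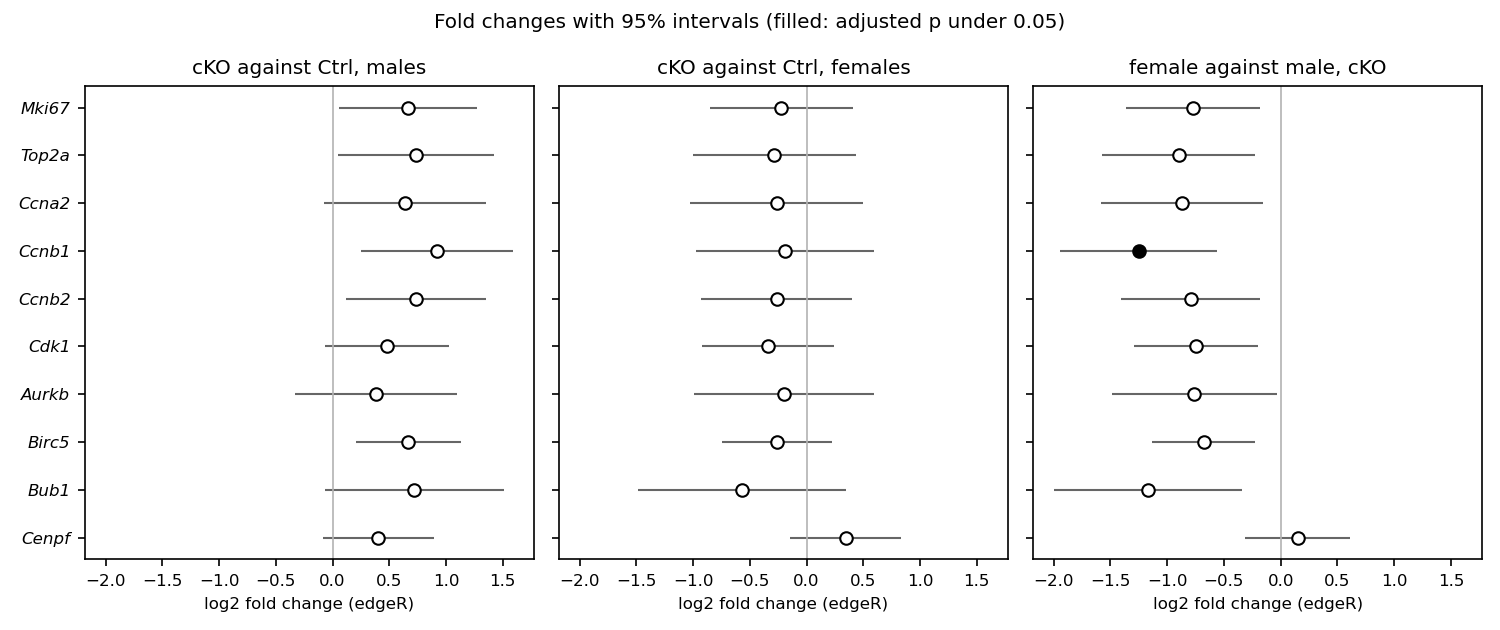
Log2 fold change of each of the 10 genes (y axis) with its 95% interval, on the x axis, for cKO against Ctrl in males, cKO against Ctrl in females, and females against males among cKO mice. Filled points passed an adjusted p under 0.05 in edgeR: the 1 filled point is Ccnb1 among cKO mice, at -1.25, while males are right of 0 for all 10 genes and females left of 0 for 9.

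The difference between the sexes in the genotype effect was tested as an interaction. All 10 genes had a lower fold change in females than in males, against 48.4% of all genes tested, with differences from -0.06 (Cenpf) to -1.29 (Bub1) on the log2 scale and a median of -0.92 against 0.01 for all genes. None passed the test (adjusted p = 0.999 for each, edgeR's quasi-likelihood test), and neither did any of the genes tested, a share of 0%. DESeq2 and limma voom also called none of the 10. At an unadjusted p under 0.05, 7 of the 10 were lower, against 1.91% of all genes tested. Birc5 had the smallest p, with a difference of -0.93 (SE 0.32, unadjusted p = 0.00762). Those of Ccnb1, Ccnb2, Top2a, Mki67, Cdk1 and Bub1 lay between -1.29 and -0.82, while those of Ccna2, Aurkb and Cenpf had intervals that include 0. Most of the 10 genes varied together among mice and are not independent of each other, and the count of 7 depended on single mice. It was 1 without Ctrl male 3, Ctrl female 6, cKO male 2 or cKO female 3, it was 2 without Ctrl male 1 or 2, Ctrl female 1, or cKO female 5 or 6, and it was 3 without cKO female 4 and 4 without cKO male 7. It was 8 without Ctrl male 5 or cKO female 1. With mice left out one at a time, at least 9 of the 10 stayed negative, Cenpf being the exception where 1 was not. Without both Ctrl males 3 and 6 the count was 5, and the difference for Ccnb1 was -1.40.

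Averaged over the sexes, the genotype effect on the 10 genes was 0.07 (Cdk1) to 0.37 (Cenpf), all above 0, where 51.6% of all genes tested were. Without cKO female 1 the median went from 0.21 to 0.04 and Aurkb, Bub1 and Cdk1 were below 0, as they were with limma voom. None was called by edgeR, DESeq2 or limma voom, where edgeR called 1.33% of all genes. Cenpf had the 1 unadjusted p under 0.05 (0.0336, adjusted p = 0.292), against 6.43% of all genes higher at that p. Cenpf was higher in cKO than in Ctrl mice on average in both sexes, by 0.40 in males and 0.35 in females, and neither was called.

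Among knockout mice, females had lower levels than males of 9 of the 10 genes at an unadjusted p under 0.05, against 8.15% of all genes tested lower at that p. Only Ccnb1 passed the test across all genes, 1 of 10 against 2.7% of all genes tested and 1.27% called lower. The median log2 fold change of females against males was -0.78, against 0.01 for all genes. The cKO males and cKO females of this comparison are the same mice as in the genotype comparisons above, so the results are not independent of each other.

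Ccnb1 had a lowest, median and highest level of 0.126, 0.428 and 0.856 CPM in cKO females and of 0.695, 1.08 and 1.49 in cKO males. The female mean was 41.3% of the male mean (0.449 ± 0.249, SD, against 1.09 ± 0.321, n = 7 each), and no female lay above the male mean. The groups overlapped, which 1.09% of all genes tested did not. The log2 fold change was -1.25 (SE 0.33, 95% interval -1.94 to -0.56, adjusted p = 0.0385, edgeR's quasi-likelihood test). This call was lost without any 1 of 10 mice, cKO males 2, 3, 4, 6 and 7 and cKO females 2 to 6, with adjusted p up to 0.0872 and the direction kept. The raw counts behind it were 2 to 17 in cKO females and 16 to 38 in cKO males.

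Birc5 came next, with levels of 0.557 to 1.77 CPM in cKO females and 0.996 to 2.00 in cKO males and a log2 fold change of -0.68 (SE 0.22, adjusted p = 0.0894, edgeR). Bub1 had -1.17 (SE 0.40, adjusted p = 0.107), with 3 of the 7 cKO females at or under the floor. Cdk1 had -0.75 at 0.904 to 2.65 CPM in cKO females and 1.62 to 3.13 in cKO males (adjusted p = 0.119).
The remaining 6 genes had larger adjusted p values. Top2a had -0.90 (adjusted p = 0.134), Ccna2 -0.87 (0.177), Ccnb2 -0.79 (0.145), Mki67 -0.77 (0.147) and Aurkb -0.76 (0.257), all by edgeR. Cenpf differed from these in sign, at 0.15 with an interval from -0.31 to 0.61. At most 2 of 7 females exceeded the male mean for any of the 9 genes other than Cenpf, against 4 of 7 for Cenpf.

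The number called changed with 1 mouse. Without cKO female 1, 6 of the 10 genes were called lower in females: Mki67 at -1.16 (adjusted p = 0.00971), Top2a at -1.33 (0.0121), Birc5 at -0.92 (0.0141), Bub1 at -1.58 (0.0340), Cdk1 at -0.99 (0.0340) and Ccnb1 at -1.30 (0.0410). Limma voom with quality weights, which lowers the weight of libraries that stand apart, also called 6, where edgeR called 1. The number called over all genes tested rose as well. It was 414 in edgeR with all mice, 548 without cKO female 1 and 688 with limma voom. Without cKO male 2, in contrast, none was called and 8 had an unadjusted p under 0.05.

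Among controls, females and males did not differ detectably in any of the 10 genes. The log2 fold changes were -0.18 (Aurkb) to 0.25 (Birc5), the 95% intervals lay between -0.95 and 0.99, and none was called by edgeR, DESeq2 or limma voom, where edgeR called 0.638% of all genes. None had an unadjusted p under 0.05, against 12.1% of all genes tested, and the smallest was 0.295 for Birc5 (edgeR). For Ccnb1 the Ctrl female mean was 91.0% of the Ctrl male mean, with a log2 fold change of -0.14 (95% interval -0.90 to 0.62). The SD of Ccnb1 was 0.368 CPM in Ctrl males (n = 6) and 0.114 in Ctrl females (n = 6).

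**Figure D3:**
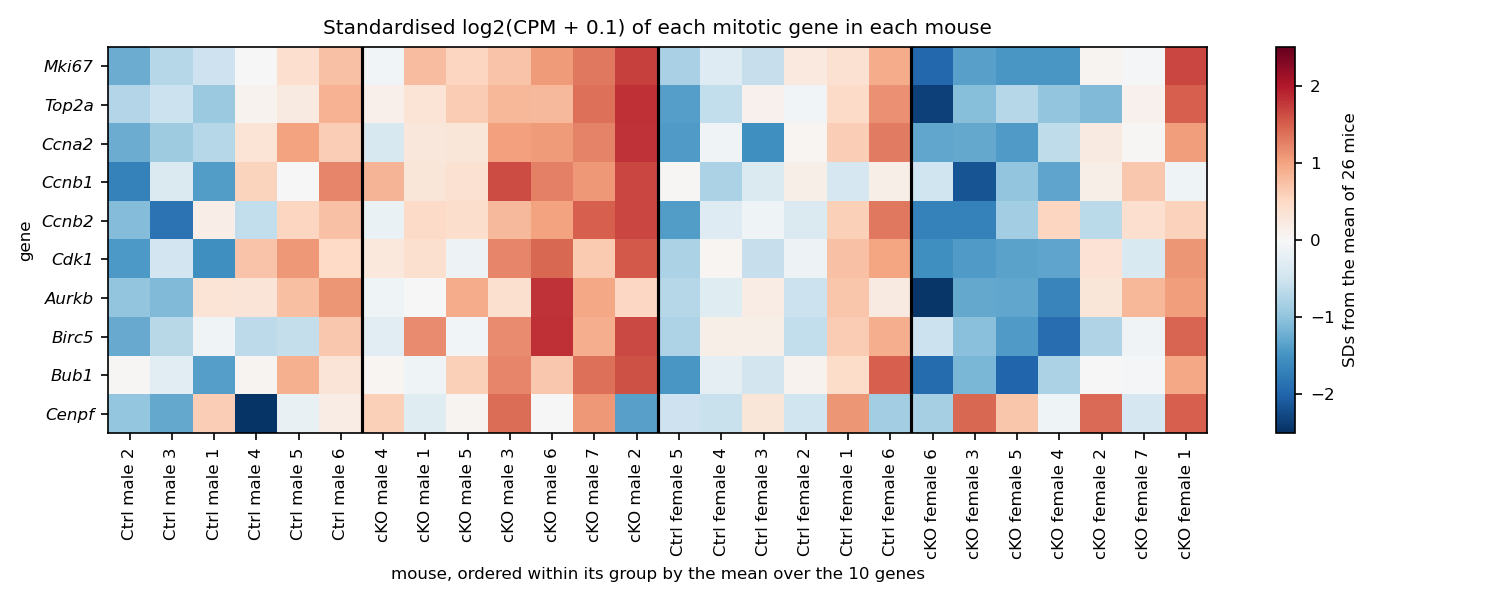
Level of the 10 genes (rows) in each of the 26 mice (columns, ordered within each group by their mean over the genes), as log2(CPM + 0.1) standardised for each gene over all mice. The order and the means given here come from standardised log2 CPM with a prior count of 2, not from the plotted values. That mean over the genes is above 0 in 7 of 7 cKO males and clearly below 0 in 4 of 7 cKO females, with cKO female 2 at 0.00. Mouse cKO female 1 stands at the high end of its group, and Cenpf is high in several mice in which the other rows are low.

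Mice of 1 group differed in the levels of these genes. Summed over the 10 genes, the level ran from 18.2 through a median of 24.6 to 36.1 CPM in Ctrl males and from 30.4 through 39.6 to 46.2 in cKO males. In Ctrl females it ran from 20.0 through 26.5 to 37.0, and in cKO females from 15.8 through 26.5 to 49.7, the widest range of the 4 groups. This sum is dominated by Mki67 and Cenpf, so the mice were also ranked gene by gene. Male cKO mouse 2 had the highest level of all 26 mice for 7 of the 10 genes. Female cKO mouse 1 was the highest of its group for 9 of the 10, and female cKO mouse 6 the lowest of its group for 5. Among the controls, Ctrl female 6 was highest in its group for 7 genes and Ctrl female 5 lowest for 7, and Ctrl male 6 was highest for 6.

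Of the 10 genes, 9 varied together among mice. Pearson's r between their log2 CPM over the 26 mice was 0.60 to 0.92 in the 36 pairs without Cenpf (median 0.77), and Spearman's rho was 0.59 to 0.93. All 36 passed after adjustment over the 45 pairs computed (permutation test, two-sided, 100000 permutations, adjusted p at most 0.00153 for Pearson's r and 0.00193 for rho). The closest pair was Mki67 and Ccna2, with r = 0.92 and rho = 0.93 (permutation p = 1e-05 for both, the smallest that 100000 permutations can give, adjusted p = 2.5e-05). The loosest was Ccnb1 and Ccnb2, the mitotic cyclins, with r = 0.60 and rho = 0.59 (permutation p = 0.00122 and 0.00154, adjusted p = 0.00153 and 0.00193). With the 2 mice farthest from the median of 1 gene of each pair left out, r was 0.48 to 0.92. The groups differ in mean, so the pairs were also compared as deviations from the group means. There r was 0.39 to 0.90 and 35 of 36 pairs passed, the exception being Ccnb1 with Ccnb2 at 0.39 (permutation test, adjusted p = 0.106). The values of 1 mouse come from 1 library, so all genes share its depth and its makeup of cells.

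Cenpf varied apart from the other 9. Its 9 pairs had r between -0.09 and 0.21 and rho between -0.07 and 0.28 over the 26 mice, and none passed (permutation p at least 0.298 for r and 0.172 for rho, smallest adjusted p = 0.362 and 0.209). Within groups r was -0.16 to 0.36. Without the 2 mice farthest from the median of the other gene of each pair, r was -0.03 to 0.20. Cenpf had the most counts of the 10 in 23 of 26 libraries, with a median of 227.

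**Figure D4:**
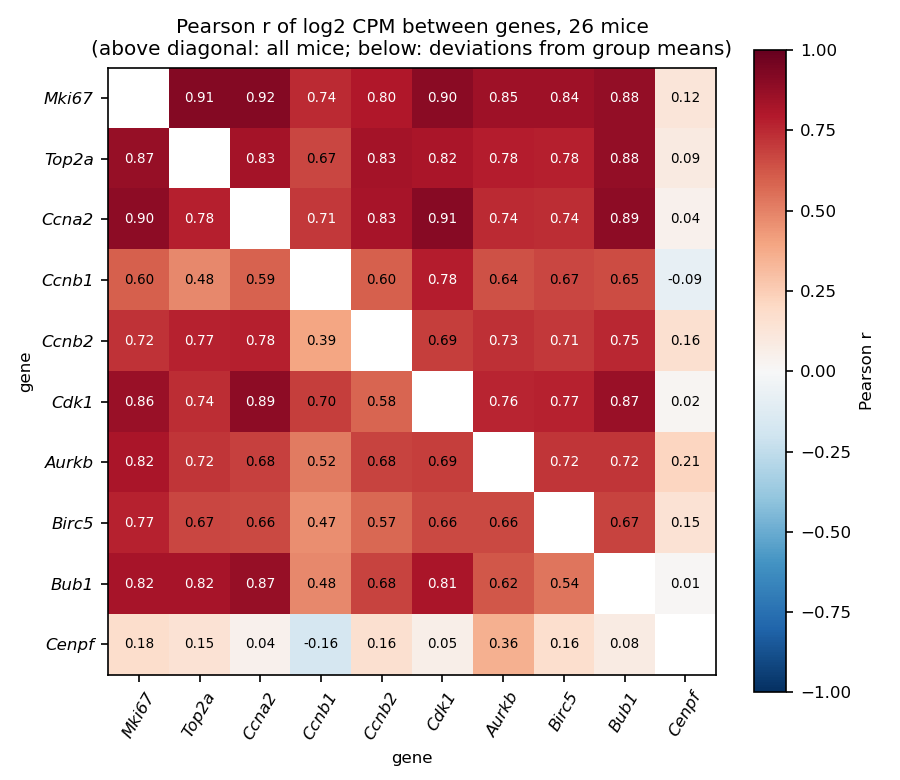
Pearson's r between each pair of the 10 genes over 26 mice, on log2 CPM. Cells above the diagonal use all mice and cells below it use deviations from group means, and the row and column of Cenpf stay between -0.16 and 0.36 while the other pairs are at 0.39 or higher.

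The genes outside every list here whose levels followed the mean standardised level of the 10 most closely were found among 15182 genes. They are named for that likeness, with no test, and r is Pearson's over 26 mice. Iqgap3, a scaffold protein of the cytoskeleton, had r = 0.91, Ckap2l, a spindle protein, 0.89, and Kif18b, a kinesin, 0.87. Nek2, a centrosomal kinase, had 0.84, Dlgap5 0.84, Kif22 and Kif20b, both kinesins, 0.83 each, and Pclaf, which binds the replication clamp PCNA, 0.81. The other two were Col4a1 at 0.83 and Col4a2 at 0.82, the chains of the main collagen of basement membranes. As deviations from group means, r was 0.73 to 0.88 for these 10 genes.

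Genes of the switch around B55 were examined next, to set the 10 genes beside their regulators. Of 21 listed, 18 were tested (Ppp2r2b, Ppp2r2c and Cdc25c were too low), and by genotype Ppp2r2a alone was called, in each sex. The smallest p values after it in males were those of Cdc20, the activator of the ubiquitin ligase that destroys cyclin B, with a log2 fold change of 0.65 (adjusted p = 0.164, edgeR), and Wee1, the kinase that restrains CDK1, with 0.34 (0.301). In females they were Cdc25b, a phosphatase that activates CDK1, with 0.32 (adjusted p = 0.932), and Ensa with -0.08 (0.948). Between cKO females and males, Arpp19, one of the inhibitors of B55, was called lower at -0.14 (SE 0.04, adjusted p = 0.0360), 1 of 18 where 2.7% of all genes were called. That call was lost without the filter on low counts (adjusted p = 0.116), with only the groups compared (0.0615), and without any 1 of cKO males 2, 4, 5, 6 and 7 or cKO females 3, 4 and 7 (up to 0.0833). The spindle midzone protein Prc1, also on this list and named after its values were seen, had r = 0.95 with the mean of the 10 genes, the highest of the list, where the list's median was 0.16.

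A further 34 mitotic genes, including kinetochore, condensin, kinesin and cytokinesis genes, were read in the same way. In males 30 of 34 were on average higher in the knockout, with a median of 0.55 on the log2 scale, and 16 were higher at an unadjusted p under 0.05, but none was called. Of all genes tested, 50.3% were higher and 6.11% were so at that p. The nearest were Nuf2, a kinetochore component, at 1.34 (adjusted p = 0.0748, edgeR) and Smc4, a condensin subunit, at 0.29 (0.0609). In females 20 of 34 were lower, with a median of -0.06 and none at an unadjusted p under 0.05, the smallest p being that of Ncaph, another condensin subunit, at -0.48, followed by Tpx2, a spindle assembly factor, at -0.49. The interaction was below 0 for 32 of 34, with 10 at an unadjusted p under 0.05 and none called. Between cKO females and males, 32 of 34 were lower, 21 of them at an unadjusted p under 0.05 where 8.15% of all genes tested were, with a median of -0.60 and none called (smallest adjusted p = 0.0515).

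Fold changes of DNA replication genes were smaller in median than those of the 10, a difference that was not tested. Of 22 S phase genes, 19 were on average higher in cKO males, with a median of 0.15, 2 higher and 1 lower at an unadjusted p under 0.05, and none called. Gmnn (geminin), which blocks relicensing of origins, had -0.25 (adjusted p = 0.0758, edgeR) and Uhrf1, which maintains DNA methylation, 0.50 (0.224). In females the median was 0.04 with none at an unadjusted p under 0.05, the smallest p values being those of the helicase subunits Mcm4 at 0.20 and Mcm2 at 0.38. Between cKO females and males the median was -0.17, and Mcm6, of the same helicase, was called lower at -0.32 (adjusted p = 0.0461), 1 of 22 where 2.7% of all genes were called. The call of Mcm6 was lost without the filter (adjusted p = 0.0666), without Ctrl males 3 and 6 (0.0537), and with replicate number as a block (0.0774). It was also lost without any 1 of 13 mice: cKO males 1, 2, 5, 6 and 7, cKO females 1, 2, 3, 4, 6 and 7, Ctrl male 3 and Ctrl female 4 (up to 0.104).

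The 18 activators and regulators of the cycle, among them D cyclins, E2F factors and subunits of DREAM, had a median of 0.10 in males and 0.03 in females, and none was called by genotype. Ccnd2 had 0.34 in males (adjusted p = 0.102, edgeR) and 0.20 in females (0.948), and Foxm1, an activator of G2 and M phase genes, 0.54 in males (0.193). Lin37, a DREAM subunit, had 0.20 in cKO against Ctrl females and was called higher in cKO females than in cKO males at 0.38 (adjusted p = 0.0372). That call was lost without the filter (0.0729) and with replicate number as a block (0.05985). It was also lost without any 1 of cKO males 1, 2, 4, 5, 6 and 7 or cKO females 1, 3, 4, 5 and 7 (up to 0.0880). Of 10 inhibitors, 9 were tested (Cdkn2a was too low), with a median of 0.11 in males and -0.01 in females and none called by genotype. Cdkn1a (p21) had 0.56 (adjusted p = 0.296) and Rb1 0.23 (0.279) in males, and Cdkn2c had 0.13 and Trp53 0.08 in females. Cdkn2b (p15), an inhibitor of CDK4 and CDK6, was called lower in cKO females than in cKO males at -1.16 (adjusted p = 0.0444). This call was lost without the filter (adjusted p = 0.0597), with only the groups compared (0.0627), and with replicate number as a block (0.0754). It was also lost without any 1 of cKO males 1, 2, 4, 6 and 7, cKO females 2 to 5, Ctrl male 6 and Ctrl female 4 (up to 0.103).

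**Figure D5:**
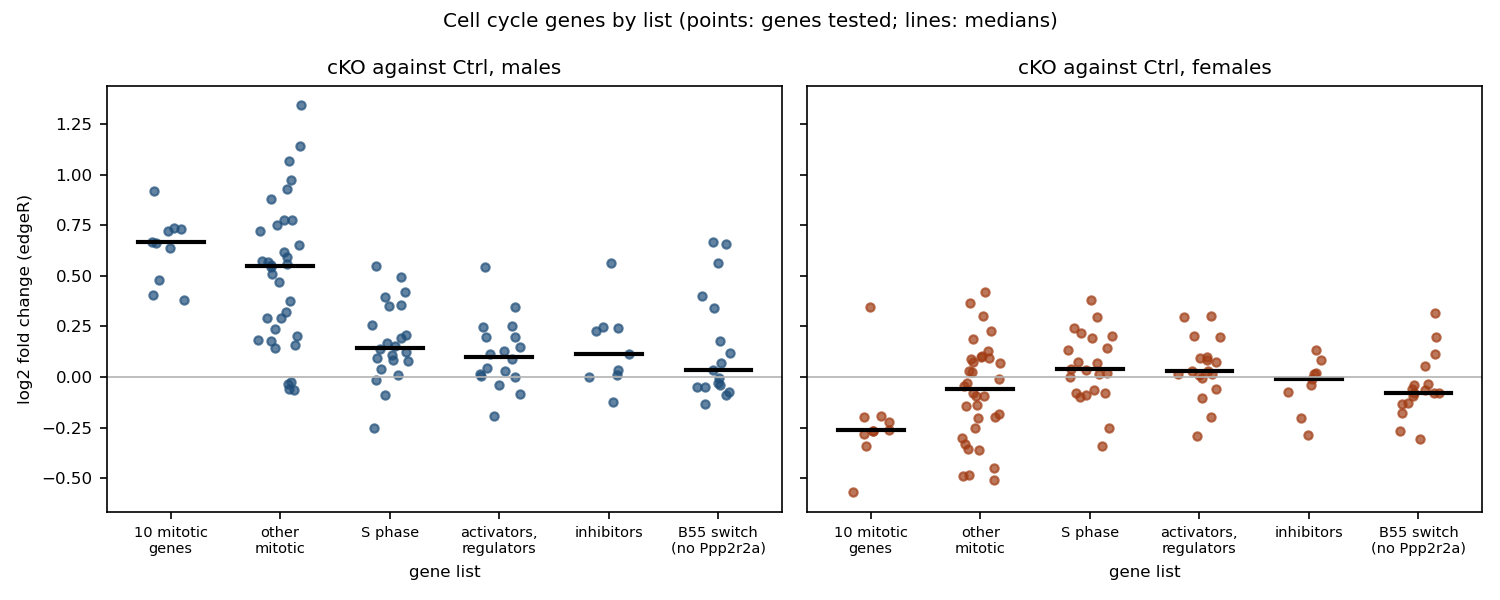
Log2 fold change of cKO against Ctrl (y axis) for the genes of each cell cycle list (x axis, the B55 list without Ppp2r2a), in males (left) and in females (right). Points are genes and horizontal bars are list medians. In males the median is 0.67 for the 10 genes and 0.55 for the 34 other mitotic genes. The medians of the S phase genes, activators and inhibitors are between 0.10 and 0.15, with single genes up to 0.55, 0.54 and 0.56, within the range of the 10.

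Markers of other cells in the ventricle were read beside these results. All 8 fibroblast markers were on average higher in cKO than in Ctrl males, where 50.3% of all genes tested were. Their median was 0.27 on the log2 scale, and none was called. At an unadjusted p under 0.05, 3 of the 8 were higher in males, against 6.11% of all genes tested. In females 7 of the 8 were on average higher in cKO, where 51.08% of all genes tested were. Their median in females was 0.10, with none at an unadjusted p under 0.05 and none called. The summed level of the fibroblast markers was 904 to 1349 CPM in Ctrl males and 1085 to 1478 in cKO males. It was 822 to 1221 CPM in Ctrl females and 907 to 1196 in cKO females. Between cKO females and males, 5 of 8 fibroblast markers were lower, 4 of them at an unadjusted p under 0.05. The other 3 were higher, 1 of them at that p. Col1a2, a collagen gene, was called lower at -0.40 (adjusted p = 0.0307, edgeR), 1 of 8 where 2.7% of all genes tested were called. Macrophage markers had 8 of 8 lower in cKO females than in cKO males, where 51.87% of all genes tested were higher. Their median was -0.20 with none called, and their sums were 190 to 292 against 222 to 353 CPM. They were 8 of 8 lower in Ctrl females than in Ctrl males as well, where 51.15% of all genes tested were higher. Their median there was -0.23, with sums of 189 to 262 against 205 to 345 CPM.
Of 8 cardiomyocyte markers, 5 were lower and 3 higher in cKO than in Ctrl males (median -0.11, from -0.24 to 0.75), all 8 were lower in females (median -0.09, none called), and 6 were higher and 2 lower in cKO females than in cKO males (median 0.15). Among them Tnni3 was called lower in cKO than in Ctrl males at -0.24 (adjusted p = 0.0316) and higher in cKO females than in cKO males at 0.24 (0.00821). Myl2 was called higher in that last comparison too, at 0.26 (0.0231), and the list of 8 summed to 61860 to 69490 CPM in Ctrl males, 54280 to 65350 in cKO males, 62630 to 76090 in Ctrl females and 58740 to 71080 in cKO females. Of all genes tested, 0.443% were called in cKO against Ctrl males and 2.7% between cKO females and males. The calls of marker genes were not repeated with mice left out.
Endothelial markers had medians of -0.10 in males and 0.07 in females and smooth muscle and pericyte markers 0.03 and 0.05, with none called in either. Lymphocyte markers summed to 4.51 to 9.57 CPM over all mice with 3 of 8 abundant enough to test, and of 8 neutrophil and blood genes 5 were tested, with none called. Over the 26 mice, Pearson's r with the mean of the 10 genes had a median of 0.58 for the fibroblast markers (0.14 to 0.79), 0.45 for the macrophage markers, 0.08 for the endothelial markers and -0.36 for the cardiomyocyte markers, against -0.01 for all genes. Of 5 atrial genes, 2 were tested and neither was called. Their log2 fold changes in cKO against Ctrl were 0.04 and 1.15 in males and 0.13 and 0.75 in females. In males 1 of the 2 had an unadjusted p under 0.05 (edgeR), where 6.11% of all genes tested were higher at that p. The sum of the 5 ran from 87.5 to 424 CPM in Ctrl males, 126 to 738 in cKO males, 179 to 509 in Ctrl females and 325 to 856 in cKO females. The atrial genes Myl7 and Sln were at 0 in all Ctrl females, no marker of the other cell types was at 0 throughout a group, and the part of cell makeup in the levels of the 10 genes was not tested.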

How the data were processed

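Per the submitters' processing notes, the tools were FastQC 0.74, cutadapt 4.6, STAR 2.7.11a and HTSeq, with genome build GRCm39. Which annotation release and which strand setting the counting used is not given in the sources used here. Stranded libraries were made from 500 ng of poly-A selected RNA of about 20 mg of tissue, per the labels' protocols, and no RNA integrity number was under 7.7. The authors deposited 1 matrix of whole-number, unnormalized counts per gene with a column for each of the 26 mice. Within groups, the counts of all 72 pairs of libraries differed beyond sampling noise (chi-square per degree of freedom 7.34 to 36.5), so each was kept as 1 mouse.

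The tests used edgeR 4.0.16 in R 4.3.3: filterByExpr (minimum count 10), TMM scaling, 1 fit of the 4 group means to all 26 mice, robust quasi-likelihood F tests and Benjamini-Hochberg adjustment over 15357 genes, with genes called under an adjusted p of 0.05. A standard error was the fold change over the root of F, and 95% intervals from these with 22 residual degrees of freedom. Correlations used log2 CPM with a prior count of 2. The alternatives were DESeq2 1.42.0, limma 3.58.1 (voom with quality weights), other scaling and filters, and each mouse left out. Libraries held 14.4 to 30.9 M counts (M for 1000000), and the floor of 3 counts covers counting error only.

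The 10 genes and all lists were chosen with earlier results of these data known. The genes named are the 10, Ppp2r2a, genes of each list that were called or otherwise had the 2 smallest p values in males or in females, and the 10 genes outside the lists most like the mean of the 10 by Pearson's r. Of the marker lists only called genes and those at 0 are named, and Prc1 was named after its values were seen. GENCODE M21 and RefSeq (both GRCm38) gave exon lengths, overlaps and promoter windows by gene ID or symbol, and no coordinate was transferred to the build of the counts. M21 matched 15094 of 15357 tested genes. The scripts were tested on simulated data.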

Additional observations from a re-analysis of the deposited data

Results flagged for a closer look

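Within groups, each gene's highest and lowest mouse was compared with its nearest neighbour in 40 sets of values (10 genes in 4 groups), by the gap as a share of the group's range. The gap was above the 95% critical value of Dixon's test in 3 sets, and chance gives about 1 in 20. All 3 came from 1 mouse, cKO female 1. Its Mki67 level was 13.1 CPM, where the next cKO female had 6.51, a gap of 0.631 of the range against a critical value of 0.568. Its Top2a level was 7.82 CPM against 3.88 in the next, a gap of 0.586, and its Birc5 level was 1.77 CPM against 1.06, a gap of 0.588.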

How the results depend on the processing

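For the 10 genes, 0 were called by genotype in either sex, as an average or as an interaction, and 0 between Ctrl females and males, under every alternative run. Not all 10 could be called in each. With only the groups compared, 9 of the 10 passed the filter in females, Bub1 being left out. Likewise 9 passed it between the sexes, among Ctrl and among cKO mice. The smallest adjusted p of DESeq2 in males is missing, and a missing value counted as not called. Between cKO females and males the count of 1 was 6 with limma voom, 2 with the replicate block, and 0 to 6 with mice left out one at a time. Same-numbered mice had a mean r of -0.03, 0.12, -0.01 and 0.03 in the 4 comparisons of groups, against 0.004, -0.019, 0.001 and -0.005 for other pairs. It was over 0.1 in 0 of 6, 3 of 6, 0 of 6 and 1 of 7 pairs, and best with its own number for 0, 2, 1 and 1 mice. The likeness was highest for cKO against Ctrl females, at up to 0.40 in a pair. In the other 3 comparisons it was near that of other pairs, and the numbers were not read as a pairing. With the block, 3 of the 10 had an unadjusted p under 0.05 in males (5 without it) and 4 in the interaction (7 without it).

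Genes called over the whole table moved as follows. In males the 68 became 399 with DESeq2, 31 without the filter, 211 with limma voom, 7 without Ctrl males 3 and 6, and 4 to 122 with mice left out. In females the 5 became 9 with DESeq2, 1 with only the groups compared, 3 with the replicate block, and 3 to 7 with mice left out. The average effect's 205 became 549 with DESeq2, 113 without the filter and 325 with limma voom, and 96 to 349 with mice left out. For Ctrl females against males the 98 became 253 with DESeq2, 61 with only the groups compared, 40 without Ctrl males 3 and 6, and 54 to 125 with mice left out. For cKO females against males the 414 became 707 with DESeq2, 244 without the filter, 688 with limma voom, and 163 to 548 with mice left out.

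Other cell cycle genes called, 1 in males (Ppp2r2a), became 4 with DESeq2, 2 with limma voom and 1 to 4 with mice left out. On average over sexes the 1 became 4 with DESeq2, 2 with DESeq2's size factors, 3 without Ctrl males 3 and 6, and 1 to 3 with mice left out. Among Ctrl mice the 0 became 1 with DESeq2 and 0 to 1 with mice left out. Among cKO mice the 4 became 8 with DESeq2, 0 without the filter, 14 with limma voom, 2 with only the groups compared, and 0 to 15 with mice left out. The causes were not tested.

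Some signs turned. For the average genotype effect, Cdk1, Aurkb and Bub1 were -0.01, -0.09 and -0.05 with limma voom, Aurkb and Bub1 -0.03 and -0.02 with the replicate block, and with mice left out they ran from -0.05 to 0.15, -0.05 to 0.18 and -0.13 to 0.25. Between Ctrl females and males, Ccnb1 was 0.01 with limma voom and 0.14 without Ctrl males 3 and 6, and Ccna2 -0.06 with the replicate block. With mice left out, Bub1 ran from -0.24 to 0.31 there, Ccna2 from -0.24 to 0.23, Ccnb1 from -0.31 to 0.15, Ccnb2 from -0.02 to 0.35, Cdk1 from -0.06 to 0.23, Mki67 from -0.03 to 0.24 and Top2a from -0.09 to 0.29. So did Ccna2 for cKO against Ctrl females (-0.54 to 0.01) and the interaction of Cenpf (-0.20 to 0.08). An interaction and an average over sexes could not be fitted with only 2 groups. Counts of 2 to 38 per library limit what Ccnb1, Aurkb and Bub1 can show.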
